A study of Rattus norvegicus with 2 samples.

Results

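The genes of the rat major histocompatibility complex (MHC) and of antigen presentation were followed through the cells of a neonatal rat heart preparation. All genes whose symbol starts with RT1-, the name of the rat MHC, were taken (31 genes), together with 9 genes added by name (B2m, Cd74, Ciita, Tap1, Tap2, Tapbp, Psmb8, Psmb9 and Psmb10), which gave 40 of the 25399 genes in the gene list. Of these, 21 are RT1 class I genes, 6 process peptides for class I, 11 belong to class II, and B2m and Ciita were kept apart. They were chosen by name, not by a threshold on a value.

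Hearts of neonatal Sprague-Dawley rats aged 1 to 3 days, male and female pooled, were digested and enriched on Percoll for intrinsic cardiac adrenergic (ICA) cells, catecholamine-making cells of the heart muscle. The cells then received saline (control) or lipopolysaccharide (LPS, a bacterial cell wall component that activates Toll-like receptor 4) at 1 µg/mL for 2 h, and each condition gave a single 10X Genomics 3′ single-cell library. The control library held 11531 cells and 152624585 unique molecular identifiers (UMIs, each counting a captured transcript once), and the LPS library held 12689 cells and 127580475 UMIs. The median cell held 12479 UMIs in control and 9432 in LPS. Cells were split by the 11 clusters and the cell names the authors deposited. Clusters 0, 1 and 7 carry the name Fibroblast, cluster 3 ICA and Cardiomyocyte, clusters 4 and 5 Endothelial, cluster 6 Macrophages, and clusters 2, 8, 9 and 10 carry no cell type name.

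MHC class I molecules are built from a polymorphic heavy chain and β2-microglobulin (B2m) and show peptides from inside the cell to CD8 T cells. The peptides are cut by the immunoproteasome (Psmb8, Psmb9 and Psmb10 replace the constitutive subunits Psmb5, Psmb6 and Psmb7), pumped into the endoplasmic reticulum by the Tap1 and Tap2 transporter and loaded with the help of tapasin (Tapbp). Class II molecules are shown by professional antigen-presenting cells, are chaperoned by the invariant chain (Cd74) and are switched on by the regulator Ciita. Interferons are known to raise class I and its processing genes through interferon-stimulated response elements (ISRE) and the factor Irf1.

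Every level below is the sum of UMIs of a gene or list over the cells of a cluster, per 1000000 UMIs of that cluster in that library (CPM). Because a single library stands for each condition, no test of LPS against control was possible. Ratios are LPS to control, and the interval in parentheses is the exact 95% interval for counting error alone. A difference outside it separates these libraries, not the conditions. Levels of different genes come from 3′ tags, which carry no length term, but the capture of each transcript may differ.

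Marker lists were set beside the cluster names. The summed endothelial markers were at 1149 CPM in cluster 4 and 864 in cluster 5 of the control library, against 37.8 in cluster 0. The macrophage list of 11 genes was at 2458 CPM in cluster 6 of the control library and 1828 CPM with LPS, and between 16.0 and 49.7 in the other control clusters. ICA markers, the cell type both labels name, were at 75.0 CPM (control) and 81.7 CPM (LPS) in cluster 3 and at or below 8.89 CPM elsewhere, although the enrichment was meant for these cells. Cardiomyocyte markers were at 9693 CPM (control) and 10315 CPM (LPS) in cluster 3. Values of this cluster therefore describe a mixture and not ICA cells alone. Fibroblast markers were found in all clusters, at 3853 CPM in control macrophages against 11531 in control cells of cluster 0. With LPS the values were 2956 and 10636. The part of fibroblast RNA in the macrophage values was not tested. The libraries shared 194 cell barcodes, 1.68% and 1.53% of the control and LPS barcodes.

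Of the 40 genes, 22 reached 50 UMIs over both libraries in at least 1 cluster, the minimum set here for a ratio. A further 14 had UMIs but stayed under 50 in every cluster, and 4 (RT1-M2, RT1-M4, RT1-M5 and RT1-Db2) had no UMI. The sparse class I genes were RT1-CE3 with 1 UMI in both libraries together, RT1-S2 with 3, RT1-M6-1 with 4, RT1-M6-2 with 16 and RT1-T24-1 with 49. The sparse class II genes are given with the macrophages.

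The promoters of 4 of the 6 processing genes (Tap1, Tapbp, Psmb10 and Psmb9) and of B2m are shown first, since Tap1 had the highest ratio of the members compared in clusters 0, 4 and 7 and B2m is the chain that all class I molecules share. RefSeq promoters (assembly GRCr8, the 250 bases before the gene start, read in the direction of the gene) were at hand for 35 of the 40 genes, matched by symbol, and for all 6 processing genes. Capitals mark matches on either strand to the ISRE core, taken as GAAA, any 2 bases and GAAA again, or to the kappaB consensus, the binding sequence of NF-κB. The interferon gamma element GAS, TTCNNNGAA, was also searched.
Tap1: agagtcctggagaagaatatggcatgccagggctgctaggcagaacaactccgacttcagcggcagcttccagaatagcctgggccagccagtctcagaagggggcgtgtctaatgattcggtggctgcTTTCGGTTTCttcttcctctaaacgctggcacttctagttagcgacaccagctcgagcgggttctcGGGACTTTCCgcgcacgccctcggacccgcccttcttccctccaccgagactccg
Tapbp: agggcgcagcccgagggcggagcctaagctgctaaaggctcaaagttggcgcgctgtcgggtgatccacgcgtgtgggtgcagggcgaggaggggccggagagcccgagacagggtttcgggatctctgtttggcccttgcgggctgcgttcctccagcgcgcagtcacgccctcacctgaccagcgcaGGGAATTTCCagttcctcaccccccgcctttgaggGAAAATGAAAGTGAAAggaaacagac
Psmb10: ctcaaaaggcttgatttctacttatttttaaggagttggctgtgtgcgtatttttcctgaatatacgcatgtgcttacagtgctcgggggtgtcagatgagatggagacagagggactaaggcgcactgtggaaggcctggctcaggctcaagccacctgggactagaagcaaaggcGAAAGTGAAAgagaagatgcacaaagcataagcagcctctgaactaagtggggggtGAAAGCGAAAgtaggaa
B2m: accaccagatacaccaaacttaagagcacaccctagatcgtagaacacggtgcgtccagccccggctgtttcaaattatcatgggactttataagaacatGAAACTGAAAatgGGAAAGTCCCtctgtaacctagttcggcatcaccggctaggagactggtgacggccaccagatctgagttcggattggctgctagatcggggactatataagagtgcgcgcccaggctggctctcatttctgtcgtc
Psmb9: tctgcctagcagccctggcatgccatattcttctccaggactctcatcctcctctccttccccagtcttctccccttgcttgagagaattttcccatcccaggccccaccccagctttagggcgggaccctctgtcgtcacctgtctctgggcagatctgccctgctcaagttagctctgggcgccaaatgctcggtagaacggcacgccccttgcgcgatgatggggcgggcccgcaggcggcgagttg

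Tap1 lies at chr20:4668544-4668793, minus strand, and Psmb9 at chr20:4668750-4668999, plus strand. These neighbours start in opposite directions with 456 bases between their starts, and the windows share 44 bases. Tapbp lies at chr20:4967878-4968127, minus strand, Psmb10 at chr19:50743293-50743542, minus strand, and B2m at chr3:129549080-129549329, plus strand. An ISRE core was present in 4 of the 6 processing genes (Tap1, Tap2, Tapbp and Psmb10), in B2m and in 3 of the 18 class I genes with a promoter in the table (RT1-N3, RT1-S2 and RT1-S3). Over all 33469 promoters of the same length, 3.41% held it. Near forms were not counted, such as tttcacttc in the windows of RT1-A1, RT1-A2, RT1-CE3, RT1-CE5 and RT1-CE10. A window without a match may therefore still hold a looser element. In Tapbp a pair of matches overlaps, and Psmb10 holds a pair that does not.

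The kappaB consensus was found in Tap1, Tapbp and B2m, in 5 class I genes (RT1-A1, RT1-A2, RT1-CE4, RT1-CE5 and RT1-CE10) and in 2 class II genes, against 6.33% of all promoters, and in some of these genes matches shifted by 1 base overlap each other. In B2m it stands 3 bases after the ISRE core. In RT1-A1, RT1-A2, RT1-CE4 and RT1-CE10 it has the same letters, GGGGATTCCCC, and these genes are close copies rather than separate cases. GAS was found in Psmb8 and RT1-M3-1, against 7.67% of all promoters. No match to any of these motifs was found in the Psmb9, RT1-T24-3 and RT1-T24-4 windows. The ISRE core and kappaB matches of Tap1 lie between the Tap1 and Psmb9 starts, beyond the end of the Psmb9 window. A match describes letters and not a bound site.

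B2m, the light chain of every class I molecule, was the most abundant of the 40 genes. Its level was highest in endothelial cluster 4, at 3019.8 CPM in control and 3349 in LPS cells. Endothelial cluster 5 followed with 1730.3 and 1841, and macrophages had 1396 and 1412. The lowest level was that of cluster 3, the ICA and cardiomyocyte cells, with 411 and 439. Among the intermediate clusters of the control library, neighbours in this order (macrophages, cluster 10, cluster 7 and cluster 2) had overlapping counting intervals.

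With LPS, B2m was slightly higher in the large clusters. The ratio was 1.13 (1.12 to 1.14) in cluster 0, 1.19 (1.16 to 1.21) in cluster 1 and 1.11 (1.09 to 1.13) in cluster 4. The interval held 1 in macrophages, where the ratio was 1.01 (0.967 to 1.06), and it lay above 1 in 7 of the 11 clusters. These ratios rest on UMI totals. The median log2 ratio of all genes compared was -0.31 in macrophages and -0.13 in cluster 0. Whether B2m stood level in macrophages therefore depends on the scaling.

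The summed RT1 class I genes followed the order of B2m at its ends. Cluster 4 had 2867 CPM in control and 2995 in LPS cells, which was the highest level of the 11 clusters in each library, and cluster 3 the lowest with 398 and 445. Control macrophages, at 1132, stood at 39.5% of cluster 4. With LPS the sum was 1.30 (1.23 to 1.39) times the control level in fibroblast cluster 7, where it went from 1198 to 1562, and 1.28 (1.24 to 1.31) in cluster 1. The ratio was 1.18 (1.17 to 1.20) in cluster 0 and 1.09 (1.04 to 1.14) in macrophages, and only 1.04 (1.03 to 1.06) in cluster 4. In endothelial cluster 5 the interval reached 1, with a ratio of 0.965 (0.932 to 1.00). The sum was therefore less than 1.5 times the control level in each of the 11 clusters.

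**Figure D1:**
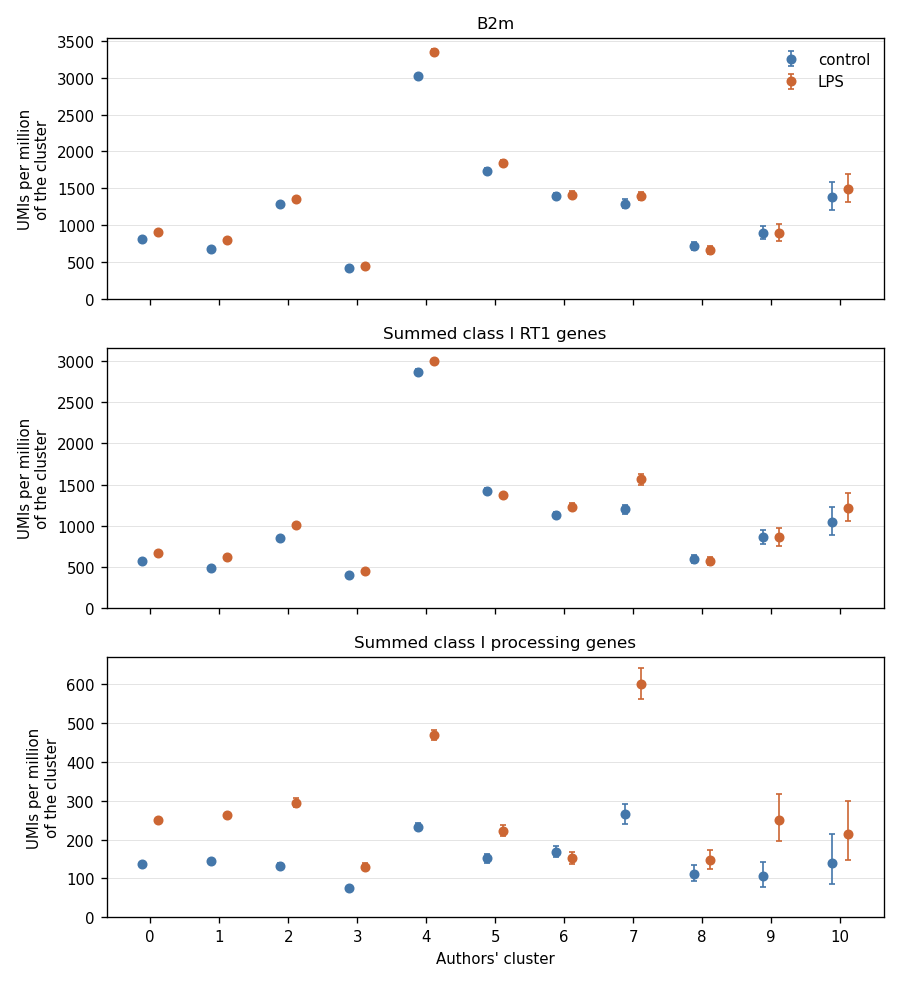
Levels of B2m, the summed RT1 class I genes and the summed class I processing genes by cluster, in UMIs per 1000000 UMIs of the cluster, for the control (blue) and LPS (orange) libraries. Bars are exact 95% Poisson intervals for counting error, with 1 library for each point. B2m and class I were highest in cluster 4, each slightly higher with LPS there. For the processing genes the libraries lay apart in most clusters and close together in cluster 6.

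The processing genes differed more than the molecules they serve. Their sum in fibroblast cluster 0 was 136 CPM in control and 250.3 in LPS cells, a ratio of 1.84 (1.80 to 1.88). In endothelial cluster 4 it went from 233 to 469, a ratio of 2.01 (1.92 to 2.11), and in fibroblast cluster 7 from 264 to 601, a ratio of 2.27 (2.01 to 2.57). Cluster 2, which has no cell type name, had a ratio of 2.23 (2.08 to 2.39), and cluster 3, the ICA and cardiomyocyte cells, 1.75 (1.56 to 1.96). Endothelial cluster 5 was lower, with 1.46 (1.32 to 1.62). Macrophages stood apart from these clusters, going from 168 to 153 with a ratio of 0.909 (0.794 to 1.04). Cluster 9, which has no cell type name, had the largest ratio, 2.35 (1.60 to 3.46), on only 48 control and 70 LPS UMIs. Intervals lay above 1 in 9 of the 11 clusters.

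Tap1, a subunit of the peptide transporter, had the largest ratio of the processing genes compared in clusters 0 to 5 and in cluster 7. It had 32 control and 215 LPS UMIs in fibroblast cluster 7, a level that went from 21.9 to 141 CPM. The ratio there was 6.45 (4.44 to 9.67). In cluster 3 the level went from 4.24 to 22.6, a ratio of 5.34 (3.56 to 8.24). Cluster 0 went from 10.3 to 34.9 and endothelial cluster 4 from 23.8 to 75.6, with ratios of 3.38 (3.14 to 3.65) and 3.17 (2.75 to 3.67). Macrophages, with 58 control and 48 LPS UMIs, were level at 18.6 and 19.3 CPM. In those cells the ratio was 1.04 (0.692 to 1.55).

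After each cell was thinned to 3000 UMIs, which left out 75 LPS cells and no control cell, Tap1 was seen in 8.02% (6.15 to 10.2%) of control and 20.6% (17.8 to 23.6%) of LPS cells of cluster 4. In cluster 7 it was seen in 3 of 104 control and 48 of 144 LPS cells. In macrophages the shares were 5.69% (3.29 to 9.08%) and 6.55% (3.99 to 10.0%). Without thinning, cluster 4 had 28.5% and 48.1%, and macrophages 17.4% and 14.1%.

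Tapbp, the tapasin that holds class I to the transporter, was higher in 7 of the 9 clusters compared, with ratios of 1.83 (1.71 to 1.95) in cluster 0, 2.18 (1.79 to 2.68) in cluster 2 and 1.93 (1.70 to 2.19) in cluster 4. In macrophages its level was 26.3 and 27.0 CPM. Tap2, the other subunit of the transporter, reached 50 UMIs only in cluster 0, with 78 control and 118 LPS UMIs and a ratio of 1.86 (1.38 to 2.50). Its level of 0.862 and 1.60 CPM was far under that of Tap1, although their products work as a pair.

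Of the immunoproteasome subunits, Psmb10 gave the most UMIs. It went from 72.9 to 121 CPM in cluster 0 (ratio 1.66, 1.61 to 1.71) and from 116 to 207 in cluster 4 (ratio 1.78, 1.66 to 1.91). Psmb9 went from 54.0 to 112 in cluster 4, and its ratio was largest in cluster 3, at 2.98 (2.18 to 4.13) with 58 control and 134 LPS UMIs. Psmb8 was rare, with 194 control and 197 LPS UMIs in cluster 0 and a ratio of 1.25 (1.02 to 1.53).

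Psmb9 was not higher in LPS macrophages. They had 144 control and 85 LPS UMIs, or 46.2 and 34.2 CPM, and the ratio of 0.740 (0.559 to 0.974) lay under 1. All genes compared in these cells had a median log2 ratio of -0.31, and with size factors that set this median to 0 the Psmb9 ratio was 0.915 (0.691 to 1.20), an interval that held 1. Set against the constitutive subunit it replaces, Psmb9 gave 14.8 UMIs per 100 of Psmb6 (12.3 to 17.7) in control macrophages. In LPS macrophages it gave a lower value, 10.6 (8.37 to 13.3). These separate intervals overlap, which does not show that the values are equal, and their difference was not tested. In cluster 4 the same measure went from 16.1 (14.8 to 17.6) to 25.6 (23.9 to 27.3), and in cluster 7 from 32.8 (26.7 to 40.1) to 56.7 (48.7 to 65.9). Psmb10 per 100 UMIs of Psmb7 went from 41.4 to 64.6 in cluster 4 and from 26.5 (22.8 to 30.6) to 23.3 (19.7 to 27.6) in macrophages. These ratios within a cluster do not depend on its UMI total.

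**Figure D2:**
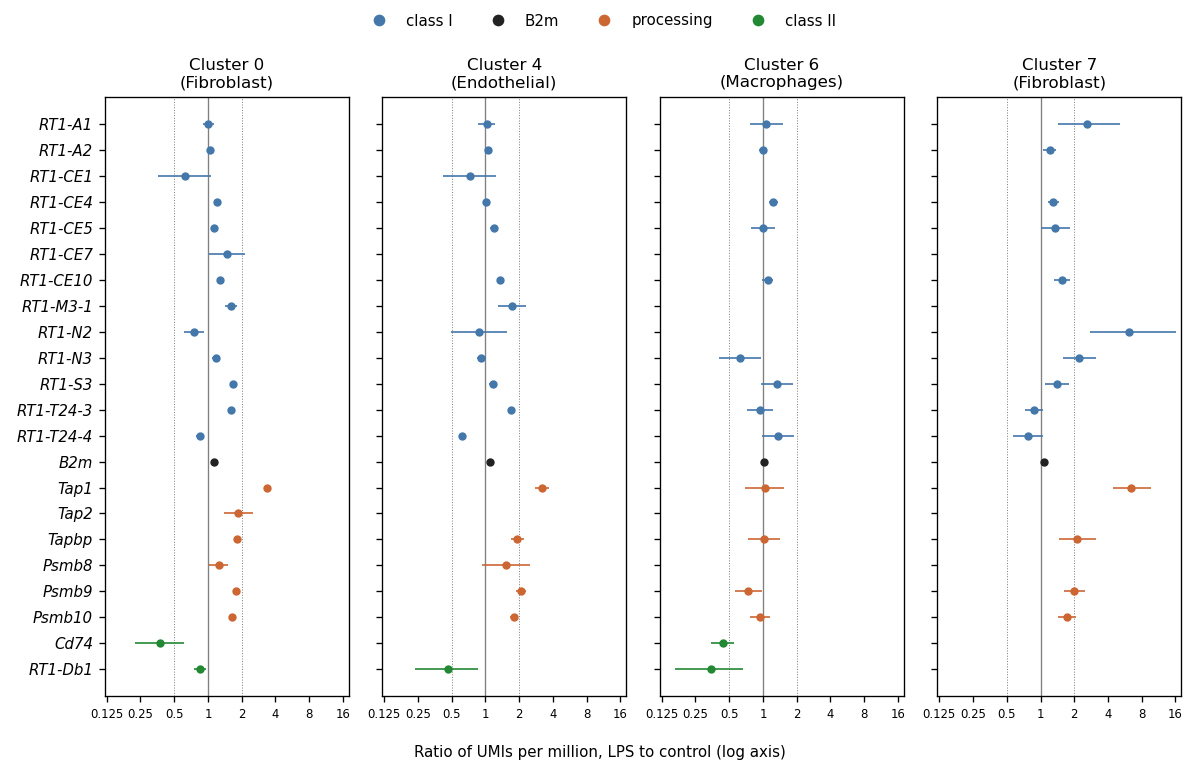
Ratio of CPM, LPS to control, on a log axis, for the genes with at least 50 UMIs over both libraries of clusters 0, 4, 6 and 7. Points are coloured by role, bars are exact 95% intervals for counting error, the solid line marks equal levels and dotted lines mark 2-fold. The processing genes (orange) lie to the right in clusters 0, 4 and 7 and around 1 in the macrophages of cluster 6. RT1-T24-4 lies to the left in clusters 0 and 4.

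Differences of 2-fold were counted in each cluster beside the share of all genes past the same limit. In cluster 0, where 22 members reached 50 UMIs, 1 (Tap1) was at least 2-fold higher and 1 (Cd74) at least 2-fold lower, against 3.44% and 9.10% of the 12247 genes compared. Cluster 4 had 2 of 19 higher (Tap1 and Psmb9) and 1 lower (RT1-Db1), against 2.65% and 4.08%. Cluster 7 had 6 of 15 higher (RT1-A1, RT1-N2, RT1-N3, Psmb9, Tap1 and Tapbp) and 0 lower, against 4.70% and 3.45%. Macrophages had 0 of 16 higher and 2 lower (Cd74 and RT1-Db1), against 4.82% and 12.3%.

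Tap1 was past 2-fold in each of clusters 0 to 5 and in cluster 7. In cluster 1 it was the single member past 2-fold, of 18 compared, against 3.23% of all genes higher and 5.09% lower. The same held in cluster 5, of 15 compared, against 4.24% and 4.56%. Cluster 2 also had Psmb9 and Tapbp, 3 of 17 in all, against 2.86% and 4.28%. Cluster 3 also had Psmb9, 2 of 14 in all, against 1.70% and 1.69%. No member compared was past 2-fold in cluster 8 (9 compared, background 2.48% higher and 1.67% lower), cluster 9 (4 compared, background 2.69% and 2.81%) or cluster 10 (4 compared, background 3.52% and 0.971%). In clusters 9 and 10 no processing gene reached 50 UMIs, so none of them is among the members compared there.

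The median log2 ratio shows the groups against the drift of all genes. In cluster 4 it was 0.95 for the 5 processing genes compared and 0.06 for the 12 class I genes, against -0.09 over all genes compared. In cluster 7 it was 1.05 for 4 processing genes and 0.46 for 10 class I genes, against -0.02. In macrophages all genes were shifted to -0.31, while the 4 processing genes stood at -0.03 and the 9 class I genes at 0.10. The shift of all genes was -0.13 in cluster 0 and -0.12 in cluster 2.

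Among the heavy chains, RT1-CE4 and RT1-A2 gave the most UMIs. RT1-A2, a classical class I gene, was at 535 and 565 CPM in cluster 4, and at 401 and 403 in macrophages. RT1-A1, its classical neighbour, was far lower in every cluster, with 25.8 and 26.5 in cluster 4. RT1-CE4, of the nonclassical class I genes, went from 294 to 363 in macrophages (ratio 1.24, 1.13 to 1.36) and from 971 to 987 in cluster 4 (ratio 1.02, 0.988 to 1.04). RT1-CE10 had a ratio of 1.34 (1.28 to 1.40) in cluster 4 and 1.56 (1.32 to 1.83) in cluster 7. Class I genes are close copies of each other, so reads may have been split or lost between them in the authors' counting, and their single values are uncertain.

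RT1-A2 moved in both directions. Its ratio was 1.21 (1.05 to 1.38) in cluster 7 and 1.15 (1.09 to 1.22) in cluster 1, and 0.789 (0.725 to 0.859) in endothelial cluster 5. RT1-S3 was higher in 7 of the 9 clusters compared, going from 16.9 to 28.5 in cluster 0, a ratio of 1.69 (1.58 to 1.80). RT1-M3-1, the M3 gene whose product binds formylated bacterial peptides, had a ratio of 1.60 (1.42 to 1.82) in cluster 0 and 1.71 (1.29 to 2.28) in cluster 4.

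RT1-CE5 went from 39.7 to 45.2 CPM in cluster 0 (ratio 1.14, 1.09 to 1.19), and RT1-CE7, compared in that cluster alone, had 57 control and 69 LPS UMIs, a ratio of 1.49 (1.03 to 2.15). RT1-CE1 was rare, with 45 control and 23 LPS UMIs in cluster 0 and an interval (0.362 to 1.06) that held 1.

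**Figure D3:**
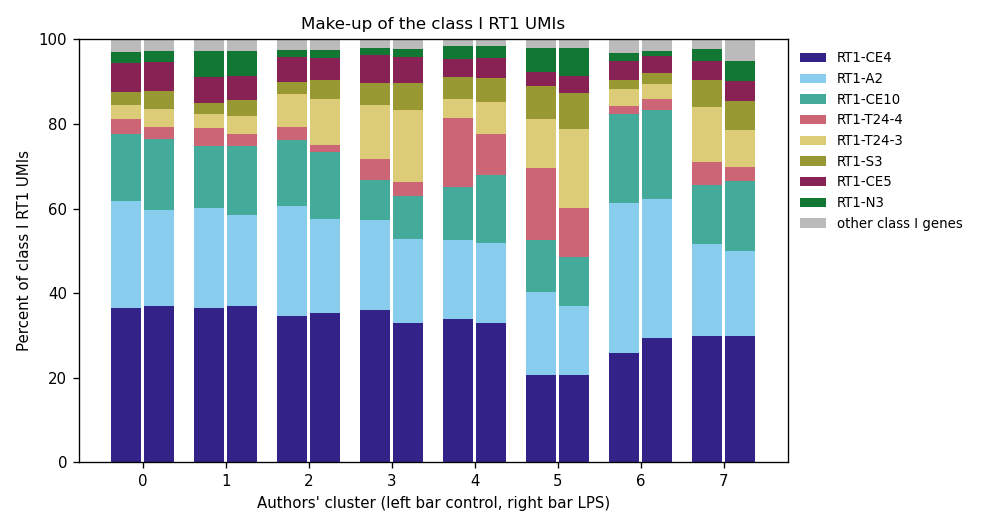
Make-up of the RT1 class I UMIs of clusters 0 to 7, as percent of the class I UMIs of a cluster, with the control library on the left and the LPS library on the right of each pair. RT1-CE4 is the largest segment except in cluster 6, where RT1-A2 is. In clusters 0 to 5 the LPS bar has a smaller RT1-T24-4 and a larger RT1-T24-3 segment.

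The paralogs RT1-T24-4 and RT1-T24-3 went in opposite directions in 6 clusters, 0 to 5, the endothelial clusters 4 and 5 among them. How reads were split between this pair in the authors' counting could not be checked, so their opposite shift and balance are uncertain. In cluster 4, RT1-T24-4 had 5151 control and 2800 LPS UMIs and went from 463 to 288 CPM, a ratio of 0.621 (0.593 to 0.651). RT1-T24-3 had 1487 control and 2208 LPS UMIs there and went from 134 to 227, a ratio of 1.70 (1.59 to 1.81). In cluster 5 RT1-T24-4 went from 242 to 159 and RT1-T24-3 from 164 to 253. As a share of class I UMIs in cluster 4, RT1-T24-4 was 16.1% in control and 9.60% in LPS cells, and RT1-T24-3 was 4.66% and 7.57%.

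The balance of the pair did not involve the cluster total. RT1-T24-4 gave 3.46 (3.27 to 3.67) UMIs per UMI of RT1-T24-3 in control and 1.27 (1.20 to 1.34) in LPS cells of cluster 4. In cluster 5 the values were 1.47 (1.34 to 1.62) and 0.627 (0.570 to 0.688), and in cluster 0 1.15 (1.08 to 1.23) and 0.612 (0.571 to 0.656). Cluster 2 had 0.384 (0.329 to 0.447) and 0.162 (0.135 to 0.193). In cluster 7 the intervals overlapped, with 0.417 (0.324 to 0.532) and 0.370 (0.281 to 0.483), as they did in macrophages, with 0.540 (0.401 to 0.722) and 0.786 (0.580 to 1.06).

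In single cells of cluster 4 thinned to 3000 UMIs, 38.5% of control and 27.0% of LPS cells held a UMI of RT1-T24-4 alone. RT1-T24-3 alone was held by 10.7% and 20.7%, both genes by 19.6% and 21.0%, and neither by 31.3% in each library. For comparison, RT1-T24-4 was seen in 6.03% (5.47 to 6.63%) of control and 5.30% (4.78 to 5.85%) of LPS cells of fibroblast cluster 0 at the same depth.

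RT1-T24-4 had its highest levels in the endothelial clusters. In the control library its level outside clusters 4, 5 and 7 with at least 50 UMIs was between 4.24% and 5.44% of that in cluster 4, while the endothelial marker list stood at 3.29% to 7.38% of its cluster 4 level in the same clusters. In cluster 0 of the control library RT1-T24-4 stood at 4.56% and the list at 3.29%, and with LPS at 6.23% and 2.41%. In cluster 7 RT1-T24-4 was at 14.1% and the endothelial list at 6.32%. The part of endothelial RNA in the RT1-T24-4 level of other clusters was not tested.

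Cluster 7, a small fibroblast cluster of 104 control and 144 LPS cells, had the largest ratio of the class I sum among the 11 clusters on UMI totals. Its interval (1.23 to 1.39) overlapped that of cluster 1 (1.24 to 1.31). The median log2 ratio of all genes compared was -0.02 in cluster 7 and -0.31 in macrophages, so this rank depends on the scaling. RT1-N2 had 7 control and 45 LPS UMIs in cluster 7 and went from 4.80 to 29.6 CPM, a ratio of 6.17 (2.76 to 16.2). In cluster 0, with 269 control and 165 LPS UMIs, the same gene had a ratio of 0.753 (0.616 to 0.917), and 0.824 (0.674 to 1.00) with size factors. RT1-N3 went from 34.3 to 75.7 in cluster 7, a ratio of 2.21 (1.57 to 3.14), and RT1-A1 from 10.3 to 27.0, a ratio of 2.62 (1.42 to 5.11). In macrophages RT1-N3 had 70 control and 35 LPS UMIs and a ratio of 0.626 (0.405 to 0.953), which became 0.775 (0.501 to 1.18) with size factors, an interval that held 1.

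Interferon-response genes (Mx1, Mx2, Ifit2, Ifit3, Isg15, Rsad2 and Irf7) were highest in cluster 7 in both libraries. Their sum was 901 CPM in control and 2962 in LPS cells of cluster 7, against 42.6 and 199 in cluster 0 and 195 and 820.5 in cluster 4. In macrophages the sum went from 77.1 to 615, a ratio of 7.98 against 4.20 in cluster 4. The part of the interferon response in the class I values was not tested.

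Other genes of the class I pathway were taken from a list of 19, of which 18 were in the gene list. The list was written with earlier results of these data known, so its counts past 2-fold only describe it. In cluster 0, 3 of the 17 with at least 50 UMIs were at least 2-fold higher and 0 lower, against 3.44% and 9.10% of all genes. These were Irf1, an activator of class I promoters, with 3.98 (3.69 to 4.30), and the interferon gamma receptor chains Ifngr1, with 2.75 (2.63 to 2.87), and Ifngr2, with 2.77 (2.63 to 2.91). The same genes were the 3 of 15 past 2-fold in cluster 4, where 2.65% of all genes were higher and 4.08% lower. In macrophages Irf1 alone of 14 was past 2-fold, against 4.82% higher and 12.3% lower of all genes, going from 11.9 to 24.1 (ratio 2.03, 1.33 to 3.15), while Ifngr1 had a ratio of 0.771 (0.637 to 0.931) there, and 0.954 (0.789 to 1.15) with size factors.

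Psme2, a subunit of the proteasome activator PA28, was higher in each of the 11 clusters, with ratios from 1.17 in macrophages to 2.15. The constitutive subunit Psmb5 was at 1.02 (0.977 to 1.06) in cluster 4 and Psmb6 at 1.31 (1.25 to 1.37). Nlrc5, the class I transactivator, had 2 control and 5 LPS UMIs in cluster 0 and 0 UMIs in macrophages, so no change could be seen at this depth. Ifng itself had 0 UMIs in clusters 0, 4, 6 and 7.

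Summed without RT1-Db1, class II UMIs lay mainly in cluster 6, with 333 of 455 in the control and 109 of 194 in the LPS library. Over both libraries, the sparse RT1-DMa, RT1-DMb and RT1-DOa had most of their UMIs in other clusters. Cd74, the invariant chain, had 272 control and 95 LPS UMIs in macrophages, which was 72.0% of the control library's and 64.2% of the LPS library's Cd74 UMIs. Its level went from 87.3 to 38.2 CPM, a ratio of 0.438 (0.343 to 0.555). In cluster 0 Cd74 was at 0.949% of its macrophage level in control and 0.816% in LPS cells, close to the macrophage marker list at 0.735% and 0.533%. Cd74 had 75 control and 23 LPS UMIs in cluster 0, a ratio of 0.376 (0.225 to 0.607). The macrophage marker list had a ratio of 0.540 (0.494 to 0.589) there, and the part of macrophage RNA in the Cd74 value was not tested. In macrophages the members of this list differed in direction, as given below.

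The chains of the class II dimers were sparse even in macrophages. RT1-Da, the alpha chain of the D molecule, had 25 control and 6 LPS UMIs, and RT1-Ba and RT1-Bb, the chains of the B molecule, had 18 and 3 control and 6 and 0 LPS UMIs. Of the peptide editors, RT1-DMb had 1 control UMI and RT1-DMa none. RT1-DOa, a chain of the DM inhibitor, had 13 control and 2 LPS UMIs, and RT1-DOb had 1 control UMI. RT1-Ha had 1 UMI in all cells, and Ciita, with 14 UMIs over both libraries, had none in macrophages.

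Summed over the 11 genes, class II in macrophages had 377 control and 121 LPS UMIs and went from 121 to 48.7 CPM, a ratio of 0.402 (0.325 to 0.495). The macrophage marker list had a ratio of 0.744 (0.717 to 0.771) in the same cells, and its part in the class II value was not tested. Members of this list did not move together, so its sum is not a stable measure of macrophage content. Csf1r had a ratio of 0.136 (0.107 to 0.171) and Fcgr1a 0.365 (0.322 to 0.414). Cd68 was at 1.07 (0.994 to 1.15), and Adgre1 went from 117 to 176 CPM. The other members had ratios between 0.678 and 0.876. The class II difference rested on few cells. Of 281 control macrophages 3 held at least 20 class II UMIs (RT1-Db1 not counted), with 112, 72 and 20, and together 61.3% of the class II UMIs. Of 291 LPS macrophages 1 did, with 23 UMIs and 21.1% of the total. When these 4 cells were left out, the class II ratio was 0.834 (0.639 to 1.09) and that of Cd74 0.888 (0.651 to 1.21), so intervals then held 1. This cut was added after seeing the data and rests on the class II count itself.

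**Figure D4:**
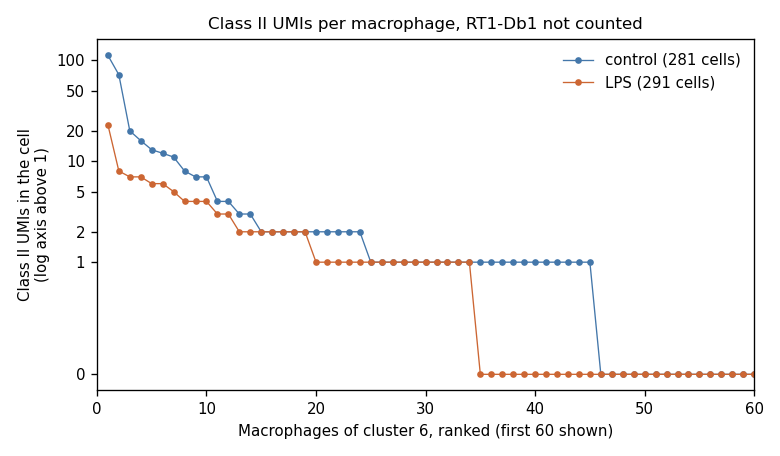
Class II UMIs (RT1-Db1 not counted) in each macrophage of cluster 6, ranked from the highest, for the control (blue) and LPS (orange) libraries, with a log axis above 1. The first 3 control cells hold 112, 72 and 20 UMIs and the first LPS cell 23, and most of the 281 and 291 cells hold 0.

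With RT1-Db1 not counted, most macrophages had no class II UMI, namely 84.0% of control and 88.3% of LPS cells. Thinned to 3000 UMIs, Cd74 was seen in 6.41% (3.84 to 9.94%) of control and 5.17% (2.92 to 8.39%) of LPS macrophages, intervals that overlap. In fibroblast cluster 0, at the same depth, it was seen in 0.273% (0.162 to 0.431%) and 0.128% (0.0586 to 0.243%). The control cell with most class II UMIs held 83 of Cd74, 17 of RT1-Da, 11 of RT1-Ba and 14 of RT1-Db1, with 0 of Ciita. It held 10 UMIs of Cd68 and 5 of Csf1r, and 0 of C1qa and Adgre1. Of the 6 dendritic cell markers, Batf3 had 1 UMI in the control cell with 72 class II UMIs and 1 UMI in an LPS cell with 5, and Flt3, Xcr1, Clec9a, Zbtb46 and Ccr7 were at 0 in each of the 10 cells with most class II UMIs of each library. The full list was at 3.85 and 2.82 CPM in cluster 6. B cell markers were at 0.321 and 0 and T cell markers at 9.95 and 4.83, all of it from Lck, with Cd3e, Cd3d and Cd3g at 0. In the same cells granulocyte markers were at 11.9 and 23.3 CPM (ratio 1.96, 1.28 to 3.05) and endothelial markers at 79.6 and 142 (ratio 1.78, 1.51 to 2.10), and their part in the macrophage values was not tested.

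RT1-Db1, the beta chain of the D molecule, had another distribution than the rest of class II. Only 4.12% of its control and 1.65% of its LPS UMIs lay in cluster 6. In cluster 0 it had 680 control and 469 LPS UMIs, which put its level at 53.2% of the control and 132% of the LPS macrophage level, where Cd74 was under 1%. Outside macrophages its UMIs were spread over 931 control and 668 LPS cells with at most 3 in a cell. In macrophages it had 44 control and 12 LPS UMIs, of which the 3 control cells richest in class II held 14, 8 and 5. The reason for its spread was not tested.

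Genes set beside class II, which include costimulators and cytokines as well as genes that serve it, came from a list of 17. Of these, 16 were in the gene list. This list too was written with earlier results of these data known, so its counts past 2-fold only describe it. In macrophages 2 of the 9 with at least 50 UMIs were at least 2-fold higher and 2 lower, against 4.82% and 12.3% of all genes. Cd40, the receptor of T cell help, went from 11.2 to 98.6 CPM, a ratio of 8.77 (6.14 to 12.9), and Il10, an anti-inflammatory cytokine, had 3 control and 53 LPS UMIs. Lower were Ifi30, the lysosomal thiol reductase that unfolds antigens, with 0.453 (0.396 to 0.516), and Rfxank, a subunit of the class II promoter factor RFX, with 0.430 (0.258 to 0.692). The protease Ctsl, which trims the invariant chain in some tissues, had a ratio of 0.538 (0.510 to 0.567) in macrophages and 1.03 (1.01 to 1.05) in cluster 4. The costimulator Cd86 was at 21.8 and 29.8 CPM, with an interval (0.968 to 1.92) that held 1.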

How the data were processed

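The deposited counts were used as they stand, raw UMI counts per gene and cell that the authors made with Cell Ranger 2.2.0 and clustered with Seurat 2.3.4 (versions from the submitters' processing notes), by canonical correlation and graph clustering per the paper's methods. The genome build and annotation behind the counts are not given in the sources used here. Cells had been called before deposit, and no further filter or doublet caller was applied. The 2 control and 8 LPS cells without a cluster were left out. UMIs were summed per cluster and library and divided by the cluster's total in Python 3.11.15 (numpy 2.4.6, scipy 1.17.1, pandas 2.3.3). Intervals are exact at 95%, with Clopper-Pearson intervals for shares, Poisson for levels and conditional ones for ratios, and cover counting error only. Shares used cells thinned to 3000 UMIs without replacement. A 2-fold ratio was counted among genes with at least 50 UMIs over both libraries of a cluster. Every member is named, with ratios where it reached that minimum, and other genes come from written lists. Members and lists were chosen with earlier results of these data known. Rats were pooled, so no animal can be traced. On simulated counts, 100% of 200 genes changed 4-fold were past 2-fold in cluster 4 (9492 genes) and 99.5% in cluster 6 (6385 genes). Smaller changes are not covered by these values, and variation between libraries of a condition cannot be judged from a single library. Alternatives were other scalings, cell filters, minima, thinning depths and cell definitions.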

Additional observations from a re-analysis of the deposited data

Results flagged for a closer look

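For 4 genes the libraries differed in opposite directions between clusters, with each interval clear of 1, and the difference between clusters was not tested. RT1-A2 was higher with LPS in cluster 7 (ratio 1.21, 1.05 to 1.38) and lower in cluster 8 (0.613, 0.471 to 0.794). RT1-N2 was higher in cluster 7 (6.17, 2.76 to 16.2) and lower in cluster 0 (0.753, 0.616 to 0.917). RT1-N3 was higher in cluster 7 (2.21, 1.57 to 3.14) and lower in the macrophages of cluster 6 (0.626, 0.405 to 0.953). Psmb9 was higher in 7 clusters, most in cluster 3 (2.98, 2.18 to 4.13), and lower in macrophages (0.740, 0.559 to 0.974). These ratios rest on UMI totals. With size factors that set the median gene of each cluster to no change, the lower values of 3 of these genes had intervals that held 1, namely 0.824 (0.674 to 1.00) for RT1-N2 in cluster 0, 0.775 (0.501 to 1.18) for RT1-N3 and 0.915 (0.691 to 1.20) for Psmb9 in macrophages. RT1-A2 in cluster 8 stayed under 1, at 0.614 (0.472 to 0.796). On UMI totals, Calr, Canx, Psme1, Psmb7, Irf2, Ifngr1 and Ctsl of the pathway lists also had intervals clear of 1 in both directions. The share of all genes with this pattern was not counted, so the members cannot be called unusual in it.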

How the results depend on the processing

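No paired analysis was possible because the design holds a single library of either kind. Of 532 alternative values for 96 results, 465 stayed within the counting interval or count limit of the reported value, 67 moved out of it and 0 reversed a called direction. For the 15 main results 17 of 60 alternatives moved out, against 50 of 472 for the other 81. With median-of-ratios size factors in place of UMI totals, log2 ratios were 0.37 (reported 0.24) in cluster 0, 0.15 (0.06) in cluster 4 and 0.43 (0.12) in cluster 6 for class I, 1.01 (0.88), 1.10 (1.01) and 0.17 (-0.14, with an interval that held 0) for the processing genes, and -1.01 (-1.31) for class II in cluster 6. With the mean of the cells' own levels, the processing genes of cluster 6 were at -0.39 and class I of cluster 4 at 0.017. Class I of cluster 4 was also at 0.034 without the 8% of cells with the most UMIs and at 0.024 without cells holding a macrophage marker UMI. Class II of cluster 6 was at -0.26 without macrophages with at least 20 class II UMIs, an alternative added after seeing the data, as was the class II sum without RT1-Db1. Members past 2-fold lower were 0 in clusters 0 and 4 and 1 in cluster 6 at a minimum of 100 UMIs, and 4 in cluster 6 at a minimum of 20, where 4 members of cluster 4 were higher. The share of all genes is given only at a minimum of 50 UMIs. It was 9.10%, 4.08% and 12.3% lower in clusters 0, 4 and 6, and 2.65% higher in cluster 4. The counts at other minima therefore cannot be set against a background. Reported log2 ratios of RT1-T24-4 and RT1-T24-3 in cluster 7 lay under 0, with intervals that held 0. They were at 0.13 and 0.43 without the 8% of cells with the most UMIs. RT1-T24-4 in macrophages had a reported ratio of 1.37, with an interval that held 1. Its log2 ratio was -0.28 when macrophages were taken as all cells with at least 5 macrophage marker UMIs. All of these changed sign, but none had a called direction.

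Depth limits the sparse members. A count of 0 in cluster 6 allows a level of up to 0.963 CPM in control and 1.21 in LPS cells, counting error only, and 18.8 to 20.9 in cluster 10.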

Other observations

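Outside cluster 6, few cells held 3 or more UMIs of a class II gene other than RT1-Db1. An LPS cell of endothelial cluster 4 held 17 UMIs of Cd74, with 2 macrophage marker UMIs among 18128. The other LPS cells of that cluster held 3 UMIs of Cd74 together, or 0.309 CPM.

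RT1-DOa, a chain of the inhibitor of class II peptide editing, was concentrated in single cells. An LPS cell of fibroblast cluster 1 held 15 of the 21 UMIs of this gene in its library and no macrophage marker UMI. In control macrophages, 2 cells held 13 UMIs, 7 and 6 each, and these cells had 0 and 2 UMIs of Cd74. The 10 barcodes that carry no cluster held 0 RT1 class I UMIs.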
